A study of Homo sapiens with 6 samples.

Results

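The clustered protocadherins are cell-surface cadherins encoded side by side on the long arm of human chromosome 5, in an alpha, a beta and a gamma cluster. The genes described here are those whose symbol begins with PCDHA, PCDHB, PCDHGA, PCDHGB, PCDHGC or PCDHAC followed by a number, and 41 of the 21151 genes in the table met that rule. They comprised 5 alpha genes (PCDHA3, PCDHA4, PCDHA6, PCDHA7 and PCDHA10), 14 beta genes and 22 gamma genes (12 of type A, 7 of type B and 3 of type C). PCDHAC1 and PCDHAC2, the C types of the alpha cluster, had no row under these symbols and were not analysed here.

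RNA sequencing was done on CCD-1064Sk (CRL-2076), an established fibroblast line from human skin, kept in Iscove's medium with fetal bovine serum. The cells carried a short-hairpin RNA, which lowers the transcript it matches. In one group it targeted ZNF469, which encodes a zinc-finger protein (shZNF469, 3 libraries, genotype given as ZNF469 knockdown), and in the other it served as a control (shControl, 3 libraries, genotype given as WT). Both groups come from 1 line and therefore share its genotype, and the sources used here give neither the hairpin sequences nor their number. The study's design text calls the 3 libraries of a group technical replicates, so each p-value reflects library-to-library spread and says nothing of the spread among cultures or hairpins.

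Each clustered protocadherin protein has an ectodomain of cadherin repeats that binds the same isoform on a neighbouring cell. In neurons, cells choose small sets of isoforms by switching on a few of many promoters, and the resulting combination lets a cell tell its own branches from those of others. Every alpha and gamma gene has its own large first exon, which is spliced to constant exons shared by the whole cluster, whereas a beta gene is a single exon with no constant part. Active promoters are bound by CTCF and brought to distant enhancers by cohesin, and silent ones carry DNA methylation.

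The small constant exons of each cluster are shown, because constant exons set what a read can tell. Both pairs below are in genome build GRCh38 as annotated in GENCODE release 29, on the plus strand. The gamma pair lies at chr5:141494807-141494865 and chr5:141505393-141505481 and was identical in 22 gamma genes. The alpha pair lies at chr5:140978949-140979007 and chr5:140982475-140982563 and was identical in 15 annotated alpha genes.
gamma shared exon 1: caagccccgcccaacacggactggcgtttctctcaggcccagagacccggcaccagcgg
alpha shared exon 1: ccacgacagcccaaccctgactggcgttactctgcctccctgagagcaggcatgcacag
gamma shared exon 2: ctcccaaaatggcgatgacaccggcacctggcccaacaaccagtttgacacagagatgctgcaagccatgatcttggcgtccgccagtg
alpha shared exon 2: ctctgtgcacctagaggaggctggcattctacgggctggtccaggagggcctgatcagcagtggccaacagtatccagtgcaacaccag

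The first shared exons of the 2 clusters had the same base at 39 of 59 positions (66.1%), and the second at 29 of 89 (32.6%). A read inside a gamma constant exon thus belongs to the gamma cluster but to no single gamma gene. Each cluster also has a longer constant exon, which is not shown and was not compared. All constant exons together made up 45.6% to 47.6% of the 4578 to 4778 bases of a gamma transcript. In an alpha transcript they made up 53.3% to 54.9%. Own first exons were also similar in places. Of the 100-base windows of each gamma first exon, 0% to 15.3% occurred in another clustered protocadherin, with the highest share in PCDHGB4 and PCDHGB5, and of those of each beta gene 2.54% to 25.7% did. Values of single genes are therefore uncertain, and the sum over a cluster does not depend on how reads were split among its listed members. Reads assigned to members listed at 0 or not analysed would be missing from the sum. All 14 beta genes also overlap annotated genes on the opposite strand, as do the first exons of 2 of 5 alpha genes and 1 of 22 gamma genes. Overlap was taken with whole gene spans, introns included. Whether counting used strand is not stated in the labels.

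ZNF469 itself checked the labels. It stood at 21.4, 18.3 and 18.5 CPM (read counts put on a common library size) in shZNF469 libraries 1, 2 and 3, against 39.7, 46.2 and 39.9 CPM in shControl libraries 1, 2 and 3. The groups did not overlap, and ZNF469 was 2.17-fold lower with the hairpin (log2 fold change -1.12 ± 0.09 SE, adjusted p = 0.000873). Throughout, log2 fold changes are shZNF469 minus shControl, and CPM values are scaled by TMM, the trimmed mean of M-values. An adjusted p comes from edgeR's quasi-likelihood test, with Benjamini-Hochberg adjustment across all 16353 tested genes, and a gene was called when it was under 0.05. Total counts ran from 41318439 to 48298264 in shZNF469 libraries and from 35417366 to 46911355 in shControl libraries.

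Fibroblast markers matched the labelled cell type: all 12 were listed in all 6 libraries and summed to 34633 to 36980 CPM in shZNF469 libraries, against 57033 to 59336 CPM in shControl libraries. The lower sum came from 3 collagen chains, COL1A1, COL1A2 and COL3A1, which were called lower. COL1A2, the highest marker by its mean over all 6 libraries, averaged 10622 ± 405 CPM in shZNF469 and 19409 ± 547 CPM in shControl (SD, n = 3 each). Of the 12, 7 had a log2 fold change above 0 (list median 0.13), and VIM, the intermediate filament vimentin, was called higher (9857 ± 788 against 7888 ± 202 CPM, adjusted p = 0.0146, edgeR). Of 12 neuronal markers 8 had no row under their symbol, and 4 were analysed here (SNAP25, STMN2, TUBB3 and MAP2). They summed to 132 to 156 CPM in shZNF469 and 133 to 136 CPM in shControl, most of it TUBB3 (95.5 ± 11.6 against 87.9 ± 2.91 CPM), a tubulin that fibroblasts can also express. Among them STMN2, a tubulin-binding protein of neurons, was called higher, at 41.5 ± 2.06 CPM in shZNF469 and 34.7 ± 1.42 CPM in shControl (1.20-fold, adjusted p = 0.0392, edgeR). Summed markers of melanocytes (2 of 7 had a row, highest MITF) were 77.8 to 87.2 CPM in shZNF469 and 62.7 to 63.9 CPM in shControl. PMEL, a pigment granule protein, was called higher, at 25.2 ± 1.07 CPM in shZNF469 and 12.6 ± 0.525 CPM in shControl (2.01-fold, adjusted p = 0.000525, edgeR). STMN2, PMEL, VIM, COL1A1 and COL3A1 were named after their values were seen. The one keratinocyte marker (KRT10) had 16.4 to 18.6 against 21.8 to 27.1 CPM and was called lower (1.42-fold, adjusted p = 0.019, edgeR). The one immune marker (CD68) had 141 to 189 against 122 to 149 CPM and was not called. The 3 endothelial markers, TEK the highest by its mean over all 6 libraries, summed to 0.615 to 3.71 against 1.82 to 3.97 CPM. Every gene in the table is above 0 in some library, so a listed marker is no proof that its cell type was present. The part of these sums in the protocadherin values was not tested. In bulk RNA, fewer cells of a type and less RNA per cell cannot be told apart.

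The gamma cluster carried most of the protocadherin RNA in these fibroblasts and was higher in shZNF469. Its 22 genes summed to 570, 532 and 557 CPM in shZNF469 libraries 1, 2 and 3, against 461, 463 and 456 CPM in shControl libraries 1, 2 and 3. Every shZNF469 library lay above every shControl library, and the ratio of the means was 1.20 (553 ± 19.6 against 460 ± 3.81 CPM, SD, n = 3 each). On the TPM scale, which corrects for transcript length, the sums were 272 ± 9 in shZNF469 and 228 ± 12.4 in shControl. No test was made on a sum over members.

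**Figure D1:**
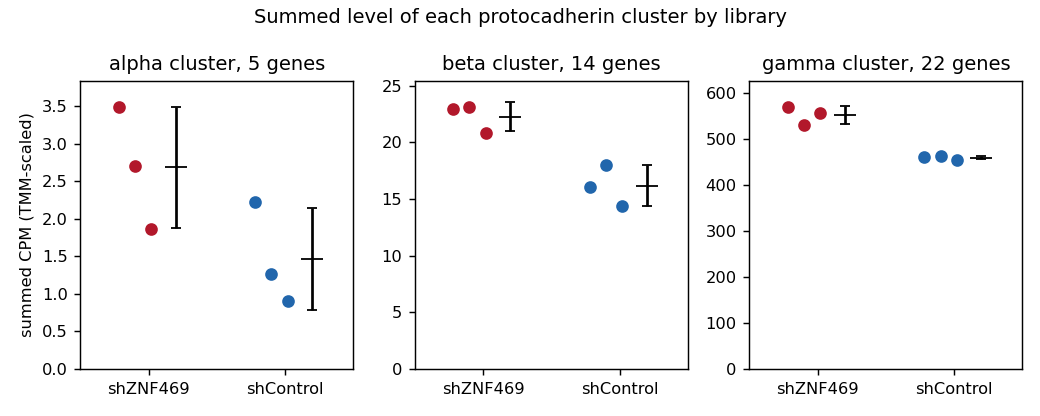
Summed TMM-scaled CPM (y axis, from 0, its own scale in each panel) of the alpha, beta and gamma genes in the 3 shZNF469 (red) and 3 shControl (blue) libraries; points are libraries and black bars are the mean ± SD. The gamma and beta groups do not overlap, at 532 to 570 against 456 to 463 CPM and 20.8 to 23.1 against 14.4 to 18 CPM, whereas the alpha groups do.

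The beta genes summed to 22.9, 23.1 and 20.8 CPM in shZNF469 libraries, against 16.1, 18 and 14.4 CPM in shControl libraries. These groups did not overlap either, with a ratio of means of 1.38. The beta sum includes 5 genes listed at 0 in at least 1 library. Beta genes listed above 0 numbered 11, 12 and 12 in shZNF469 libraries, against 9, 11 and 9 in shControl libraries. The part of this in the ratio was not tested. The alpha genes summed to 3.49, 2.7 and 1.87 CPM in shZNF469 libraries, against 2.22, 1.27 and 0.909 CPM in shControl libraries, and there the groups overlapped.

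Of the 41 genes, 33 had enough counts to be tested, namely 20 gamma, 11 beta and 2 alpha genes. Among them 5 gamma genes were called, and these 5 were higher in shZNF469, where 4.56% of all tested genes were called higher, 5.34% lower and 9.9% in either direction. No gamma gene was called lower, and no alpha or beta gene was called in either direction. At an unadjusted p under 0.05, which 12.1% of all tested genes passed with a higher value, 9 gamma genes, 2 beta genes and no alpha gene passed, all higher. DESeq2, run on the same counts, called 9 gamma genes and 1 beta gene higher and none lower, beside 11.2% of all genes called higher by that tool. The log2 fold change was above 0 for 19 of 20 gamma genes, 10 of 11 beta genes and 1 of 2 alpha genes, beside 50.7% of all tested genes. Medians were 0.41 for gamma, 0.40 for beta and 0.27 for alpha genes, beside 0.00 over all tested genes. Members of a cluster share exons or similar sequence, so these directions are not independent of each other. Some also hang on listed zeros. PCDHA6, PCDHB3 and PCDHB13, all above 0, were at 0 in 2 shControl libraries each, with SEs of 1.59, 1.53 and 1.89. PCDHA4, below 0, was at 0 in 2 shZNF469 libraries and 1 shControl library (SE 2.01). PCDHB3 and PCDHB13 were named after their values were seen.

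Type A genes, 11 of the 20 tested gamma genes, held 3 of the 5 calls. PCDHGA12, the last type A gene, had 39.4, 36.9 and 34.6 CPM in shZNF469 libraries 1, 2 and 3, against 27.5, 27.8 and 27.9 CPM in shControl libraries. It was 1.33-fold higher, with a log2 fold change of 0.42 ± 0.06 SE (adjusted p = 0.00871, edgeR). All shZNF469 libraries lay above the narrow shControl range, and the call held whichever single library was left out.

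PCDHGA4 (chr5:141355021-141512975) had 27.1, 23.7 and 28.8 CPM in shZNF469 libraries, against 14.6, 19.4 and 11.6 CPM in shControl libraries. Its log2 fold change of 0.80 ± 0.18 SE was the highest among the called genes (adjusted p = 0.034, edgeR). PCDHGA7 (chr5:141382742-141512975) had 16.5, 16.9 and 21.8 CPM in shZNF469 libraries, against 10.1, 9.17 and 13.7 CPM in shControl libraries, a log2 fold change of 0.74 ± 0.17 SE (adjusted p = 0.0388, edgeR). Neither gene's groups overlapped, but for both the shControl libraries spread more than for PCDHGA12.

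Type B genes, 7 of the 20 tested gamma genes, held the other 2 calls. PCDHGB5 (chr5:141397947-141512975), the most abundant type B gene, had 65.7, 72.2 and 75.5 CPM in shZNF469 libraries, against 57.9, 55.7 and 56.1 CPM in shControl libraries. Its difference was the smallest of the 5, 1.26-fold (log2 fold change 0.33 ± 0.06 SE, adjusted p = 0.0218, edgeR). PCDHGB2 (chr5:141359994-141512975) had 24, 20.3 and 24.7 CPM in shZNF469 libraries, against 17.9, 15 and 12 CPM in shControl libraries, a log2 fold change of 0.62 ± 0.15 SE (adjusted p = 0.0441, edgeR). Both genes separated the groups without overlap.

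Single libraries decided 4 of these 5 calls. Without shZNF469 replicate 1 or 3, 2 gamma genes were called (PCDHGB5 and PCDHGA12). Without shControl replicate 1 the 2 were PCDHGB2 and PCDHGA12, and without shControl replicate 3 they were PCDHGA7 and PCDHGA12. Without shControl replicate 2, 3 were called (PCDHGA2, PCDHGA4 and PCDHGA12), and without shZNF469 replicate 2, 5 were, with PCDHGA11 in place of PCDHGA7. With those libraries left out the share of all genes called higher was 1.42% to 4.81%. On deposited TPM values, with limma on log2(TPM + 0.5), only PCDHGA7 of the 5 was called (adjusted p = 0.0335), and 1.36% of all genes were called higher. The log2 fold changes of the 5 genes stayed between 0.29 and 1.02 under the 14 other settings.

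**Figure D2:**
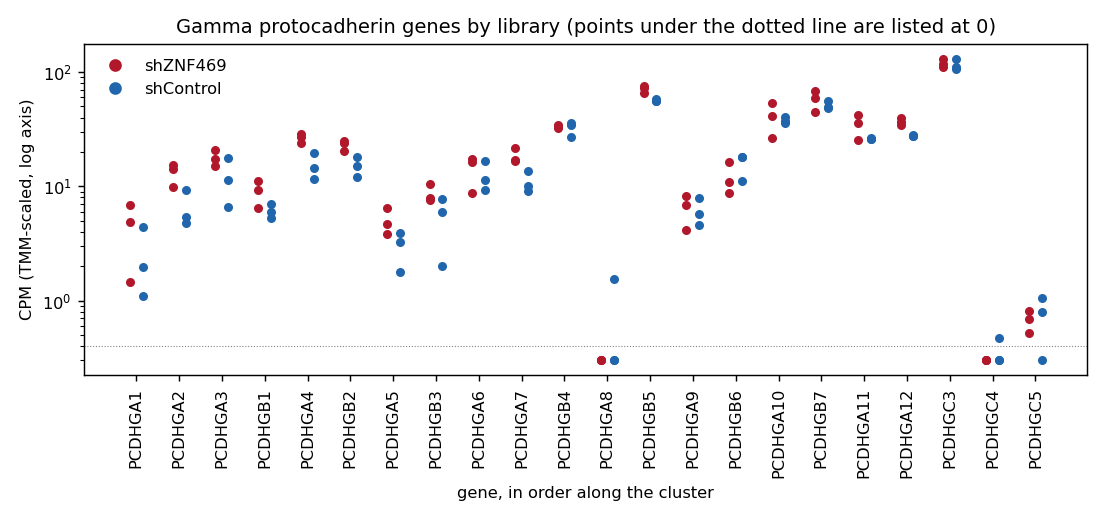
TMM-scaled CPM (log axis) of the 22 gamma genes in the order in which they lie along the cluster, in 3 shZNF469 (red) and 3 shControl (blue) libraries, 1 point a library; points under the dotted line are listed at 0 and drawn at a fixed height. The red points stand above the blue without overlap for PCDHGA2, PCDHGA4, PCDHGB2, PCDHGA7, PCDHGB5 and PCDHGA12, and PCDHGC3 is the highest gene in both groups.

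In all, 6 gamma genes separated the groups with every shZNF469 library higher, beside 15.6% of all tested genes. The sixth, named after its values were seen, was PCDHGA2. It had 9.83, 14.3 and 15.5 CPM in shZNF469 libraries, against 5.39, 9.27 and 4.76 CPM in shControl libraries, the largest fold change of the tested gamma genes (log2 fold change 1.02 ± 0.28 SE), and missed the threshold (adjusted p = 0.0633, edgeR). Other abundant A and B genes were not called. PCDHGB7 had 68.3, 59.6 and 44.7 CPM in shZNF469 libraries, against 48.2, 49.9 and 55.7 CPM in shControl libraries (log2 fold change 0.17 ± 0.15 SE, adjusted p = 0.569, edgeR). PCDHGA10 had 53.6, 26.3 and 41.6 CPM in shZNF469 libraries, against 40.8, 35.9 and 37.6 CPM in shControl libraries (log2 fold change 0.09 ± 0.23 SE, adjusted p = 0.876, edgeR). For both, the shZNF469 libraries spread to either side of the shControl range, and for PCDHGA10 the log2 fold change was -0.17 without shZNF469 replicate 1.

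The remaining tested A and B genes that were not called had log2 fold changes of -0.39 to 0.81. The one below 0, again named after its values were seen, was PCDHGB6, with 16.2, 10.8 and 8.79 CPM in shZNF469 libraries, against 17.9, 11.2 and 18 CPM in shControl libraries (adjusted p = 0.436, edgeR). PCDHGA8 was listed at 0 in 5 libraries and stood at 1.53 CPM in shControl library 2, so no fold is given.

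The C types of the gamma cluster differ from the A and B types in that their promoters are not part of the random choice in neurons. PCDHGC3, known to bind the WNT pathway scaffold Axin1 in cultured cells, had 111, 130 and 117 CPM in shZNF469 libraries, against 106, 130 and 110 CPM in shControl libraries. The groups overlapped throughout, and the log2 fold change was 0.05 ± 0.09 SE (adjusted p = 0.819, edgeR). Per length it was the highest of the 41 genes, at 60.5 ± 6.09 TPM in shZNF469 and 58.5 ± 7.18 TPM in shControl (SD, n = 3 each), followed by PCDHGB5 at 34.6 ± 2.46 and 27.8 ± 1.58 TPM and PCDHGB7 at 29.7 ± 4.91 and 25.2 ± 0.474 TPM. PCDHGC5 had 0.814, 0.525 and 0.689 CPM in shZNF469 libraries, against 0.786, 1.06 and 0 CPM in shControl libraries, and was not called (log2 fold change 0.13 ± 1.17 SE, adjusted p = 0.965, edgeR). PCDHGC4, needed for the survival of neurons in mice, was listed at 0 in 5 libraries and at 0.467 CPM in shControl library 2.

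The make-up of the gamma cluster was set beside its total. PCDHGC3 held 19.5%, 24.5% and 21.1% of the gamma counts in shZNF469 libraries, against 23.1%, 28.1% and 24.2% in shControl libraries, and these ranges overlapped. Without PCDHGC3 the gamma sum was 459, 401 and 439 CPM in shZNF469 libraries, against 354, 333 and 345 CPM in shControl libraries, a ratio of 1.26. Summed type A genes had 238, 185 and 231 CPM against 162, 161 and 159 CPM (ratio 1.35), summed type B genes 221, 216 and 208 CPM against 191, 170 and 186 CPM (ratio 1.18), and summed type C genes 112, 131 and 118 CPM against 107, 132 and 110 CPM (ratio 1.03), each in shZNF469 and then shControl libraries. The groups overlapped for type C only; differences between the types were not tested.

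**Figure D3:**
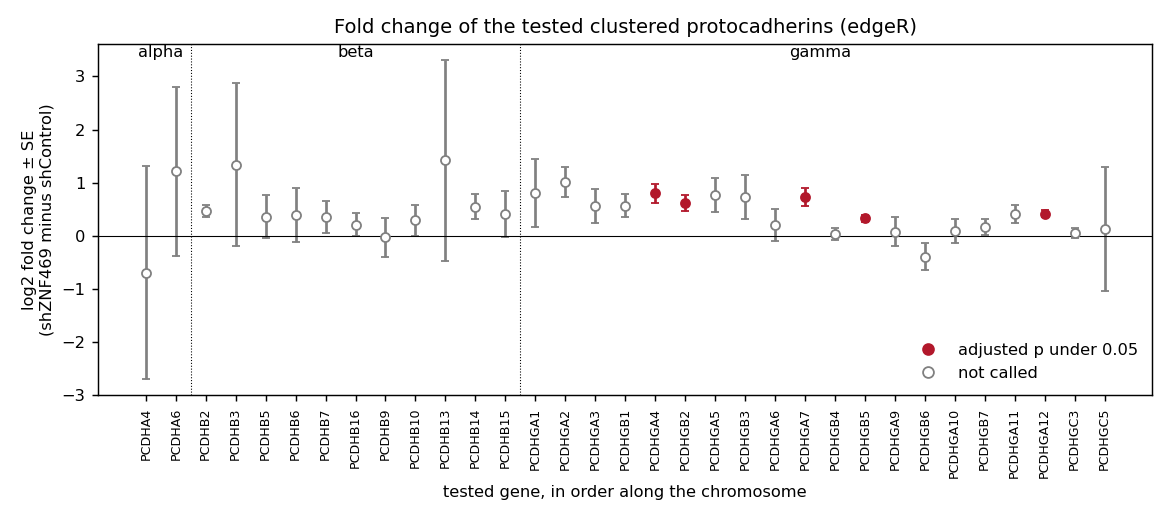
Log2 fold change ± SE (y axis, shZNF469 minus shControl, edgeR) of the 33 tested alpha, beta and gamma genes in their order along the chromosome; filled red points have an adjusted p under 0.05. The 5 called genes all lie in the gamma cluster between 0.33 and 0.80, and the gamma genes to the left lie mostly above those to the right.

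Along the gamma cluster the fold changes were larger at the 5′ end than at the 3′ end, given here as a description. The first 10 tested genes, PCDHGA1 to PCDHGA7, had log2 fold changes of 0.20 to 1.02 with a median of 0.73, and the last 10, PCDHGB4 to PCDHGC5, had -0.39 to 0.42 with a median of 0.11. Of the 5 calls, 3 were in the first 10. In counts, the first 11 genes summed to 173, 161 and 187 CPM in shZNF469 libraries, against 127, 118 and 120 CPM in shControl libraries (ratio 1.43), and the other 11 to 398, 371 and 370 CPM in shZNF469 libraries, against 334, 345 and 336 CPM in shControl libraries (ratio 1.12). Neither set overlapped between groups. The rank correlation of position with log2 fold change was -0.73 over 20 tested genes (Pearson's r -0.67), a description across genes that share constant exons, libraries and neighbours. Its value ran from -0.47, on log2(TPM + 0.1), to -0.74 under the other settings, and was -0.54 without shControl replicate 2. Position was also correlated with level at 0.41, and level with log2 fold change at -0.38.

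The count and the TPM of a gene together give the length of the transcripts to which its reads were assigned. Lengths were scaled on 652 to 750 genes with a single annotated transcript, whose implied lengths had quartiles of 0.988 to 1.01 of the annotated length. They were used to tell the forms apart for 16 of 22 gamma genes, whose single-exon transcript is over 10% shorter than the 4-exon one. Of these 16, 14 had a median implied length within 10% of the 4-exon transcript, so most of their reads were assigned to a form with the constant exons, and PCDHGC4 and PCDHGC5 did not. The other 6, PCDHGB4 and PCDHGA8 among them, were left out of this count, as their single-exon transcript is not that much shorter. PCDHGA8, listed in shControl library 2 only, had an implied length of 6544 bases there. That is near its single-exon transcript of 6480 bases, with 4605 bases for the 4-exon one. Libraries also differed. PCDHGA3 had an implied length of 2694 bases in shControl library 1, close to its single-exon transcript of 2695 bases, and 4800 to 4806 bases in the other 5 libraries. Its CPM was 20.6, 15 and 17.4 in shZNF469 libraries, against 6.6, 11.3 and 17.8 in shControl libraries, lowest in that library, whereas its TPM there was 5.88 against 5.61 and 8.19 in shControl libraries 2 and 3. PCDHGB3 likewise had 2458 bases in shControl library 3 against 4745 to 4753 bases elsewhere, and its lowest value, 2.01 CPM, in the same library.

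Among the tested gamma genes, 5 had at least 1 library within 2% of the single-exon length (PCDHGA1, PCDHGA3, PCDHGA5, PCDHGB3 and PCDHGC5). Genes whose 2 lengths differ by 10% or less were not assessed. None of the 5 was among the called genes, whose implied lengths lay between 4436 and 4853 bases in all 6 libraries. Without those 5 genes the correlation of position with log2 fold change was -0.60 over 15 genes, and the medians were 0.68 for the first 6 and 0.09 for the last 9.

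**Figure D4:**
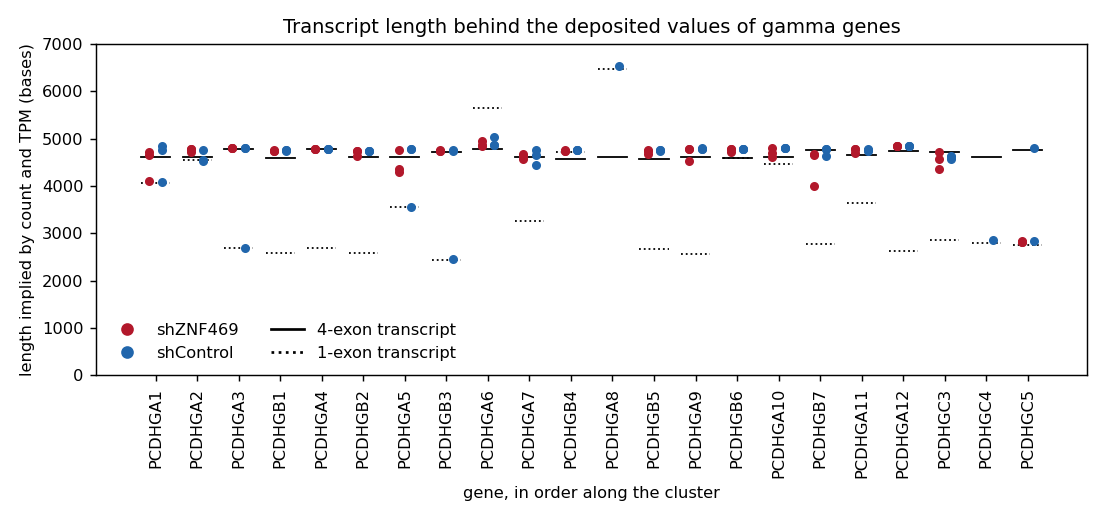
Length implied by the deposited count and TPM (y axis, bases) for the 22 gamma genes in order along the cluster, 1 point for each library in which the gene is listed above 0, in shZNF469 (red) and shControl (blue); solid and dotted lines mark the annotated 4-exon and 1-exon transcripts of GENCODE release 29. Most points lie near the 4-exon length, and PCDHGA3 and PCDHGB3 each have 1 shControl library at the 1-exon length, at 2694 and 2458 bases.

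Promoter sequence is shown for 4 of the 5 called genes (all but PCDHGA12) and, for comparison, for 4 genes that were not called (PCDHGB4, PCDHGA10, PCDHB2 and PCDHA6), because clustered protocadherin promoters are known for a conserved sequence element with a CGCT box that lies within a CTCF site. RefSeq windows of 300 bases (250 before the start and 50 after, build GRCh38.p14) were at hand for 36 of the 41 genes. The capitals mark CGCTGTT in gamma, GGCGCTGC in beta and GTCGCTG in alpha windows, letters chosen by reading these same windows. All are on the plus strand, at chr5:141354956-141355002 for PCDHGA4, chr5:141382645-141382691 for PCDHGA7, chr5:141359917-141359963 for PCDHGB2, chr5:141397859-141397905 for PCDHGB5, chr5:141387613-141387659 for PCDHGB4, chr5:141412927-141412973 for PCDHGA10, chr5:141094538-141094585 for PCDHB2 and chr5:140827891-140827937 for PCDHA6.
PCDHGA4: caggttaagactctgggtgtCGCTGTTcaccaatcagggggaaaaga
PCDHGA7: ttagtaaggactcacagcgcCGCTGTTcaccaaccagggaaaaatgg
PCDHGB2: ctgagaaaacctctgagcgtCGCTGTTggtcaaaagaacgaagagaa
PCDHGB5: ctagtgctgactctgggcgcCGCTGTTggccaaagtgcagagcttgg
PCDHGB4: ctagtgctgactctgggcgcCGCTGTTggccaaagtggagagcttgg
PCDHGA10: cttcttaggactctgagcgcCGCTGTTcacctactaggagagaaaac
PCDHB2: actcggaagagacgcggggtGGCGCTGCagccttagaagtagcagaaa
PCDHA6: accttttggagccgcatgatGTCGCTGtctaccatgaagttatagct

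On either strand, CGCTGTT was present in windows of 13 of 20 gamma genes and in 2.26% of the 35116 windows of all genes. GGCGCTGC was present for 10 of 12 beta genes, beside 4.38% of all windows, and GTCGCTG for 2 of 4 alpha genes, beside 3.24%. GTCGCTG was also present for 6 of 20 gamma genes, and CGCTGTT for 1 of 12 beta genes. The 3 motifs share the letters CGCTG and can overlap. PCDHGB4 and PCDHGB5 were alike at 46 of the 47 bases shown, whereas the other 77 pairs among 13 gamma genes were alike at 22 to 38. Their fold changes stood apart in size: PCDHGB4 had 32.3, 33.7 and 34.6 CPM in shZNF469 libraries, against 34.7, 27.1 and 36.1 CPM in shControl libraries (log2 fold change 0.04 ± 0.11 SE, adjusted p = 0.877, edgeR), beside 0.33 ± 0.06 SE for PCDHGB5, and the difference between the 2 genes was not tested. Tested gamma genes with CGCTGTT had log2 fold changes of 0.04 to 1.02 (12 genes, median 0.60), and those without it -0.39 to 0.73 (6 genes, median 0.29). Most genes with it lie among the first 10 tested genes by position, and most without it among the last 10. Motif and position therefore cannot be told apart here, and neither was tested. A match here is a run of letters and was not tested as a binding site.

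Beta genes are known as binding partners that combine with alpha and gamma isoforms at the cell surface, and in these fibroblasts they were present at low levels. PCDHB2, the most abundant, had 5.21, 5.02 and 4.72 CPM in shZNF469 libraries, against 3.28, 3.63 and 3.88 CPM in shControl libraries. The groups did not overlap, and the log2 fold change of 0.47 ± 0.12 SE missed the threshold (adjusted p = 0.0575, edgeR). DESeq2 called it (adjusted p = 0.0169), and over all 14 other settings its adjusted p was 0.0169 to 0.339. PCDHB14 had 2.89, 2.22 and 2.49 CPM in shZNF469 libraries, against 2.13, 1.42 and 1.63 CPM in shControl libraries, without overlap (log2 fold change 0.55 ± 0.23 SE, adjusted p = 0.199, edgeR).

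The other beta genes among the 4 most abundant, PCDHB16 and PCDHB7, overlapped between the groups. PCDHB16 had 2.89, 3.93 and 3.22 CPM in shZNF469 libraries, against 3.73, 2.4 and 2.57 CPM in shControl libraries (log2 fold change 0.21 ± 0.22 SE, adjusted p = 0.646, edgeR). PCDHB7 had 1.93, 2.02 and 2.14 CPM in shZNF469 libraries, against 1.52, 2.19 and 1.04 CPM in shControl libraries (log2 fold change 0.35 ± 0.30 SE, adjusted p = 0.563, edgeR). Without shControl replicate 2, 1 beta gene outside these 4 was called higher, beside 2.21% of all genes. Of the 14 beta genes, 9 were above 0 in all 6 libraries, and the other 5 had at least 1 library listed at 0.

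Low values are cut in this table in a way that follows depth. The lowest TPM above 0 was 0.333, 0.334 and 0.36 in shZNF469 libraries 1, 2 and 3, against 0.456, 0.342 and 0.399 in shControl libraries 1, 2 and 3, and it was highest in the libraries with the lowest total counts. A listed 0 is therefore not proof of absence, and the shallower libraries list fewer genes. Of the 41 protocadherins, 34, 35 and 33 were listed above 0 in shZNF469 libraries, against 30, 34 and 29 in shControl libraries, and the 2 lowest counts belong to the 2 shallowest libraries. At the floor, 6 genes were at 0 in all shControl libraries and not in all shZNF469 libraries (PCDHA3, PCDHA7, PCDHA10, PCDHB8, PCDHB11 and PCDHB12), each above 0 in 1 shZNF469 library, and no fold is given for them.

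The alpha cluster was near this floor. No alpha gene was above 0 in all 6 libraries. PCDHA4 had 1.93, 0 and 0 CPM in shZNF469 libraries, against 2.22, 0 and 0.909 CPM in shControl libraries (log2 fold change -0.69 ± 2.01 SE, adjusted p = 0.889, edgeR). PCDHA6 had 0.685, 0.484 and 1.87 CPM in shZNF469 libraries, against 0, 1.27 and 0 CPM in shControl libraries (log2 fold change 1.22 ± 1.59 SE, adjusted p = 0.721, edgeR). Each group held both listed and unlisted libraries, except PCDHA6 in shZNF469. Leaving out a single library turned or made these values: PCDHA4 was at 0.52 without shControl replicate 1, and PCDHA6 was called without shControl replicate 2 (adjusted p = 0.0484), when its remaining shControl libraries are both at 0. PCDHA3 was listed only in shZNF469 library 2, at 1.69 CPM, and PCDHA7 only in shZNF469 library 1, at 0.878 CPM.

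Genes known to read, silence or bind the clustered protocadherins were counted from lists drawn up for this comparison. CTCF, which binds the active promoters, had 24.3, 23.6 and 24.8 CPM in shZNF469 libraries, against 25, 28.1 and 26.5 CPM in shControl libraries, and was not called (log2 fold change -0.13 ± 0.06 SE, adjusted p = 0.261, edgeR). RAD21, a cohesin subunit, averaged 146 ± 7.5 CPM in shZNF469 and 166 ± 2.82 CPM in shControl (log2 fold change -0.19, adjusted p = 0.0807, edgeR). Of 18 tested genes of CTCF, cohesin and its loading, 2 fell and none rose, beside 5.34% of all tested genes called lower and 4.56% higher. SMC1A, a cohesin core subunit, had 31.4, 30.9 and 33.1 CPM in shZNF469 libraries, against 52.3, 50.1 and 51.2 CPM in shControl libraries (log2 fold change -0.69, adjusted p = 0.000675, edgeR). CDCA5, which holds cohesin on DNA after replication, averaged 2.96 ± 0.601 CPM in shZNF469 and 8.1 ± 0.147 CPM in shControl (log2 fold change -1.45, adjusted p = 0.0023, edgeR).

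Of 23 tested genes of DNA methylation and heterochromatin, 6 fell and none rose, with a list median of -0.11, beside 5.34% of all tested genes called lower. UHRF1, which brings the maintenance methyltransferase to newly copied DNA, had 9.85, 10.8 and 10.9 CPM in shZNF469 libraries, against 26.8, 28.5 and 28 CPM in shControl libraries. DNMT1, that methyltransferase, had 49.1, 47.5 and 48.9 CPM in shZNF469 libraries, against 72.7, 73.8 and 72.4 CPM in shControl libraries. Both fell without overlap, by 1.41 and 0.59 on the log2 scale (adjusted p = 0.000159 and 0.000823, edgeR). HELLS, a chromatin remodeller needed for DNA methylation, averaged 3.93 ± 0.464 CPM in shZNF469 and 7.27 ± 0.734 CPM in shControl (adjusted p = 0.00907, edgeR). CBX1, a heterochromatin protein, averaged 55.4 ± 3.31 CPM in shZNF469 and 76.9 ± 1.27 CPM in shControl (adjusted p = 0.0042, edgeR). Also called lower, and named after their values were seen, were TET3 and EZH2 (log2 fold change -0.51 and -0.35, adjusted p = 0.0235 and 0.0435, edgeR). SMCHD1, a repressor of the protocadherin clusters in mice, had 56.2, 69.1 and 54.9 CPM in shZNF469 libraries, against 56.5, 54.8 and 49.4 CPM in shControl libraries, and was not called (adjusted p = 0.382, edgeR). The part of these genes in the protocadherin values was not tested, and DNA methylation was not measured.

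Partners and processing enzymes of protocadherins gave 3 higher and no lower genes of 27 tested, with a list median of 0.04, beside 4.56% of all tested genes called higher. NCSTN and APH1B, subunits of the gamma-secretase that cuts protocadherins within the membrane, averaged 242 ± 10.3 and 36.9 ± 1.02 CPM in shZNF469, against 203 ± 3.08 and 28.7 ± 1.55 CPM in shControl (adjusted p = 0.0233 and 0.0118, edgeR). FYN, a kinase, averaged 76.1 ± 3.81 CPM in shZNF469 and 64.7 ± 1.73 CPM in shControl (adjusted p = 0.0477, edgeR). These calls were not stable: the list's count was 0 on TPM values and without shControl replicate 2, and 1 without shZNF469 replicate 1 or 3 or shControl replicate 1 or 3. FYN lost its call under 10 of 14 settings, NCSTN under 8 and APH1B under 4.

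Other cadherins went both ways, beside 4.56% of all tested genes called higher and 5.34% lower. Of 8 tested non-clustered protocadherins and FAT and Dachsous cadherins, FAT1 was higher, at 326 ± 13.2 CPM in shZNF469 and 275 ± 7.64 CPM in shControl (adjusted p = 0.0268, edgeR). PCDH10 was lower, at 8.12 ± 1.14 CPM in shZNF469 and 11.6 ± 0.691 CPM in shControl (adjusted p = 0.038, edgeR). Of 16 tested classical and atypical cadherins and catenins, CELSR1 rose (27.5 ± 2.12 against 21.2 ± 1.42 CPM in shZNF469 and shControl), and CDH2 (72.4 ± 3.62 against 98.2 ± 4.05 CPM), CDH11 (295 ± 8.64 against 344 ± 2.72 CPM) and CDH4 (6.49 ± 0.404 against 8.91 ± 0.597 CPM) fell, at adjusted p of 0.0307, 0.00596, 0.0226 and 0.0343 (edgeR). CDH2 and CDH11 are the N-cadherin and the cadherin 11 of mesenchymal cells. The call of CDH2 held under all 14 other settings, whereas CDH4 lost its call under 10, CDH11 and PCDH10 under 8 each, and CELSR1 and FAT1 under 7 each. The count of lower genes in that list of 16 was 1 with any single library left out, except shZNF469 replicate 2, when it was 3. That of higher genes was 0 without shZNF469 replicate 1 or any 1 shControl library. FAT1 was not called without shZNF469 replicate 1 or any 1 shControl library, and PCDH10 was called with shZNF469 replicate 1 left out but with no other library left out.

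Neighbouring genes on chromosome 5 gave the surroundings of the clusters. Of 18 tested genes on either side of or between the clusters, none was called by edgeR, beside 9.9% of all tested genes called in either direction. A list of 18 genes is too small to set the absence of calls apart from that share. At an unadjusted p under 0.05 (edgeR), 2 of the 18 passed, beside 4001 of all 16353 tested genes. The median log2 fold change of the 18 was -0.01. TAF7, which lies between the beta and gamma clusters, had 99.3, 101 and 113 CPM in shZNF469 libraries, against 113, 98.4 and 108 CPM in shControl libraries, overlapping throughout (log2 fold change -0.02 ± 0.08 SE, adjusted p = 0.903, edgeR). DESeq2 called 1 of the 18 higher and 1 lower, beside 11.2% of all genes called higher by that tool.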

How the data were processed

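Reads were handled with HISAT2 and StringTie on build GRCh38.p14, per the submitters' processing notes. Neither the annotation release, the strand setting, tool versions nor a possible low-value filter is given in the sources used here. The deposited table gives a whole-number read count and a TPM value, computed by the authors, for each gene and library. Libraries were built from RNeasy-purified total RNA using NEBNext Ultra reagents, per the labels' protocols.

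Counts of all genes were fitted in edgeR 4.0.16 (R 4.3.3) with TMM scaling and filterByExpr (minimum count 10), and the groups compared by a two-sided quasi-likelihood test without covariates, adjusted over 16353 genes. Standard errors of log2 fold changes come from the estimate and its F statistic. The procedure was tested on simulated data. Alternatives were DESeq2 1.42.0, other scalings, no filter, limma 3.58.1 on log2(TPM + 0.5) or log2(TPM + 0.1), a replicate block and each library left out. Libraries of a group differed from each other by more than sampling noise (chi-square 8.7 to 34.8 per degree of freedom), so none was merged.

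The members and gene lists were chosen with earlier results of these data known. Named were the called members, the 4 with the highest mean CPM in each cluster, the C types, up to 4 called genes of each list with the lowest p, 4 fixed regulators and neighbours, and the highest marker of each cell type, of which 1 is not reported here; others are said to be named after their values were seen. Genes without a symbol (4195) could not match the rule. Gene coordinates and promoter sequences were taken from RefSeq (GRCh38.p14) and exons from GENCODE release 29.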

Additional observations from a re-analysis of the deposited data

How the results depend on the processing

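Across 14 other settings, the count of gamma genes called higher was 5 with RLE factors, library totals alone or no count filter. The shares of all genes called higher there were 4.57%, 4.38% and 2.95%. With DESeq2 the count was 9, beside 11.2% of all genes. It was 1 with limma on log2(TPM + 0.5), on log2(TPM + 0.1) or without a low-value filter, beside 1.36%, 1.17% and 0.955%. With 1 library left out it was 2 to 5, beside 1.42% to 4.81%. The cause was not tested, and such fits have fewer samples. No setting called a member lower. With replicate numbers as a block, 3 gamma genes were called (PCDHGA7, PCDHGB5 and PCDHGA12), beside 3.62% of all genes called higher. PCDHGA4 and PCDHGB2 were not called with it (adjusted p = 0.0692 and 0.061, edgeR). In their deviations from the group mean, same-numbered libraries correlated at -0.0226, 0.0759 and 0.0334, and different-numbered ones at -0.1025 to 0.0606. The numbers thus gave no sign of a pairing, which so few libraries cannot exclude. Beta genes called higher numbered 1 with DESeq2, and 0 to 1 with 1 library left out; alpha genes numbered 0 to 1 with 1 library left out. Log2 ratios of summed CPM with 1 library left out were 0.24 to 0.29 for gamma, 0.38 to 0.55 for beta and 0.62 to 1.30 for alpha.

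Among the named genes, directions turned only for ones that were not called. With 1 library left out, log2 fold changes ran from -8.45 to 0.52 for PCDHA4 (0.52 without shControl replicate 1), from -0.17 to 0.33 for PCDHGA10 (-0.17 without shZNF469 replicate 1), from -0.01 to 0.15 for PCDHGC3 (-0.01 without shZNF469 replicate 2), from -0.45 to 0.78 for PCDHGC5 (-0.03 without shZNF469 replicate 1 and -0.45 without shControl replicate 3) and from -0.08 to 0.03 for TAF7 (0.01 and 0.00 without shZNF469 replicates 1 and 2, 0.03 without shControl replicate 1). ZNF469 was called lower under all 14 settings, with log2 fold changes of -1.19 to -1.03. Depth limits the alpha cluster and the low beta genes, whose libraries lie near the listing floor.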
